A study of Mus musculus with 6 samples.

Results

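The genes described here encode 9 proteins that bind actin filaments or sit beside them in contractile cells: the transgelins Tagln and Tagln2, the calponins Cnn1, Cnn2 and Cnn3, caldesmon Cald1, smoothelin Smtn, and the LIM proteins Csrp1 and Csrp2. They were taken by gene symbol from the 25746 genes of the count table, all 9 were present, and all 9 were among the 12192 genes with enough reads to be tested. The study removed Acta2, which encodes smooth muscle α-actin, from cardiac fibroblasts, the matrix-producing cells of the heart that become contractile myofibroblasts after injury. RNA-seq was available for 2 Acta2 KO and 2 WT libraries, and ATAC-seq, which maps open chromatin, for 1 Acta2 KO and 1 WT library.

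The protocols in the labels describe both a cultured and an in vivo preparation, and do not say which of them gave each library. In one, fibroblasts of Acta2fl/fl and WT mice were given Cre by an adenovirus (Adeno-Cre) and then TGFβ for 2 days. In the other, a fibroblast-specific MerCreMer line, in which tamoxifen switches Cre on, received tamoxifen at 75 mg/kg for 5 days from 6 weeks of age, had its left coronary artery ligated at 9 weeks, and received tamoxifen again until 5 days after surgery, with fibroblasts recognised by a Tcf21 lineage reporter. Both genotypes share these treatments as described. The labels do not state whether the 2 libraries of a genotype came from different mice or dishes, so the tests below measure the spread between libraries, and that spread may be technical.

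Calponins and transgelins share a calponin homology domain, and both protein families lie along actin filaments. Calponin and caldesmon slow the sliding of myosin on actin in smooth muscle, transgelin bundles filaments, smoothelin marks contractile smooth muscle, and the CSRP proteins link filaments to α-actinin and zyxin through LIM domains. Tagln, Cnn1, Smtn and Csrp1 are used as markers of the smooth muscle and myofibroblast programme, and many genes of that programme carry a CArG box, the element bound by serum response factor (SRF) together with myocardin-related cofactors. Tagln2, Cnn2, Cnn3 and Cald1 are also made in many cells that are not muscle.

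Acta2 RNA was much lower in KO libraries. It stood at 256 and 266 CPM (reads relative to library size, scaled by TMM) in KO libraries, against 2186 and 2200 CPM in WT libraries, a log2 fold change of -3.07 with a standard error (SE) of 0.030 (edgeR adjusted p = 1.59e-32). KO libraries held 11370115 and 10864365 estimated counts, and WT libraries held 8429166 and 9096811. In the fit over all genes, 18.3% of genes were higher and 17.4% lower in KO at an adjusted p under 0.05 (edgeR's quasi-likelihood test with Benjamini-Hochberg adjustment), and the median log2 fold change of all genes was 0.0014.

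Selected regulatory sequences of Cnn1, Cnn2, Csrp1 and Cald1 are given first, because the peak results below refer to them. The CArG boxes of Cnn3 and Smtn, and the other boxes of Csrp1 and Cald1, are counted below but not printed. The printed sequences are all from the plus strand of GRCm38.p6, the same coordinates as mm10, and capitals mark a CArG box. Promoters are credited to RefSeq and run from 250 bases before the RefSeq start to the first annotated exon, and each window holds a box with up to 60 bases on either side, cut where an exon begins. Promoters of 7 of the 9 genes were in the RefSeq table, with 9 promoters in all.

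Cnn1 promoter, chr9:22099003-22099215: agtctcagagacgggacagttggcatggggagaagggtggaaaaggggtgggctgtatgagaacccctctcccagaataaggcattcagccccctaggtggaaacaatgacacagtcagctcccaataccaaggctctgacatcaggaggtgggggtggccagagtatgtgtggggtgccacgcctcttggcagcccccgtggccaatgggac
Cnn1 intronic box, chr9:22100066-22100191: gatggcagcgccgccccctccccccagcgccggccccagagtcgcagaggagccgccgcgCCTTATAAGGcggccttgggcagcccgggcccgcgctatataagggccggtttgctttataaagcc
Cnn2 promoter, chr10:79988350-79988583: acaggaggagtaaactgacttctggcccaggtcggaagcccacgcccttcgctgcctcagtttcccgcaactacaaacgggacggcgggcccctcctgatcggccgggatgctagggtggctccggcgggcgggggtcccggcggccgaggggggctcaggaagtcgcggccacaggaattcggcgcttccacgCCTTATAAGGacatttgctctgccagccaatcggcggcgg
Csrp1 promoter of the second start, chr1:135728917-135729146: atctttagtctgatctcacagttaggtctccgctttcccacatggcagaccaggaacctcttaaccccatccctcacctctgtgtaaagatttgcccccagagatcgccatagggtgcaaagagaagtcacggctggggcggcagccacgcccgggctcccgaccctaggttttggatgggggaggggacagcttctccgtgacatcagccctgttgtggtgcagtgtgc
Csrp1 intronic box, chr1:135724349-135724478: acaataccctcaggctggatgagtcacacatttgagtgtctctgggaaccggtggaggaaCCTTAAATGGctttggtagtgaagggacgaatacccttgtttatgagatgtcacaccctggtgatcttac
Cald1 upstream box, chr6:34598189-34598318: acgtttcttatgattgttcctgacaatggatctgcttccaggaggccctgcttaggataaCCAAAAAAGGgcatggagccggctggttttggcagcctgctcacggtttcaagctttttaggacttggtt

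Of the 9 genes, 6 were higher in KO libraries (Tagln, Tagln2, Cnn1, Cnn2, Smtn and Csrp1), none was lower, and Cnn3, Cald1 and Csrp2 did not pass the test. Across all tested genes, 18.3% were higher. The median log2 fold change of the 9 genes was 0.44, and their summed level was 4542 and 4450 CPM in KO libraries, against 3780 and 3809 CPM in WT libraries. The median and the count describe the list and were not tested as such.

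**Figure D1:**
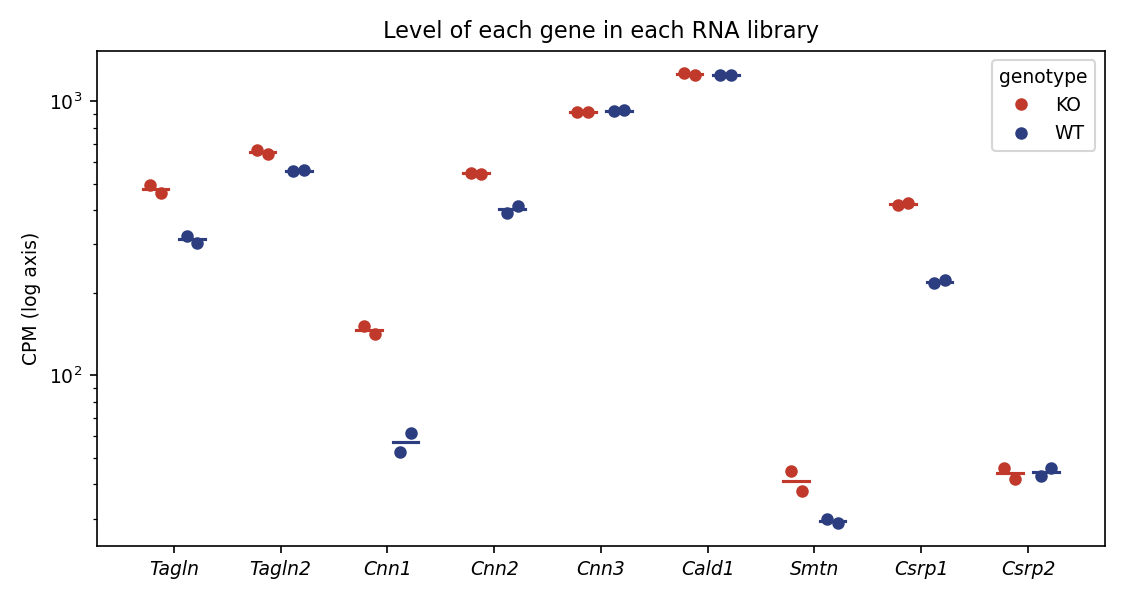
Level of each of the 9 genes in CPM on a log axis, with 1 point per RNA library (2 KO, 2 WT) and a line at the mean of each genotype. Cnn1 and Csrp1 show the widest gaps between genotypes, at mean levels of 146.2 and 420.2 CPM in KO libraries, against 56.9 and 220 CPM in WT libraries, whereas Cnn3, Cald1 and Csrp2 lie side by side.

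Cnn1 (ENSMUSG00000001349; chromosome 9, 22099216 to 22109630, plus strand), the calponin of differentiated smooth muscle, had the largest fold change of the 9. It stood at 152 and 141 CPM in KO libraries, against 52.3 and 61.5 CPM in WT libraries. Both KO libraries lay above both WT libraries, and the gap was many times the difference between libraries of a genotype. On the log2 scale the difference was 1.36 (SE 0.065, edgeR adjusted p = 9.09e-16), the 212th highest of 12192. The raw counts behind these levels were 1729 and 1543 in KO libraries, against 436 and 556 in WT libraries.

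Cnn2 (ENSMUSG00000004665; chromosome 10, 79988584 to 79996062, plus strand), a calponin of both muscle and other motile cells, was also higher. Its level was 548 and 544 CPM in KO libraries, against 392.02 and 413 CPM in WT libraries, without overlap. The log2 fold change was 0.44 (SE 0.036, edgeR adjusted p = 1.27e-10). Cnn3 (ENSMUSG00000053931; chromosome 3, 121426497 to 121458207, plus strand), the acidic calponin of many cell types, stood at 913 and 910.2 CPM in KO libraries, against 919 and 927 CPM in WT libraries. The libraries did not overlap, but the gap was small beside the level, at a log2 fold change of -0.018 (SE 0.028, edgeR adjusted p = 0.663). Groups that do not overlap are common here, with 34.3% of all genes higher and 32.8% lower in both KO libraries than in both WT libraries. About 11.1% of the 100-base windows of Cnn3 transcripts also occur in other genes, among them the opposite-strand Gm42928, so its count carries that uncertainty.

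Tagln (ENSMUSG00000032085; chromosome 9, 45929619 to 45936058, minus strand), also known as SM22α, stood at 495 and 462 CPM in KO libraries, against 322 and 304 CPM in WT libraries. The KO libraries were both above the WT libraries, at a log2 fold change of 0.61 (SE 0.041, edgeR adjusted p = 1.54e-12). Its exons overlap those of Pcsk7, a proprotein convertase on the opposite strand, and those of the opposite-strand Gm48529. The overlaps with each gene sum to 1349 bases, where a base covered by both genes counts for each. Of the 100-base windows of Tagln, 48.3% are shared with these genes. The library kit is not stated to keep strand, so reads of the shared stretch cannot be assigned to one gene. Pcsk7 itself had 294 and 279 estimated counts in KO libraries, against 144 and 160 in WT libraries, and its log2 fold change was 0.55 (edgeR adjusted p = 0.000436). Tagln had 5653 and 5066 estimated counts in KO libraries, against 2685 and 2748 in WT libraries. Tagln2 (ENSMUSG00000026547; chromosome 1, 172500047 to 172507380, plus strand), the transgelin of non-muscle cells, showed the smallest difference that passed the test. It stood at 663 and 639.9 CPM in KO libraries, against 557 and 559 CPM in WT libraries, at a log2 fold change of 0.22 (SE 0.033, edgeR adjusted p = 4.51e-06). The Tagln2 call did not survive a larger assumed spread between libraries, a biological coefficient of variation (BCV) of 0.1 against the fitted 0.0311 (edgeR adjusted p = 0.345).

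Csrp1 (ENSMUSG00000026421; chromosome 1, 135720061 to 135752232, plus strand), the LIM protein found with α-actinin and zyxin on actin bundles, had the second largest fold change of the 9. Its level was 416 and 424 CPM in KO libraries, against 218 and 222 CPM in WT libraries. The KO libraries were both well above the WT libraries, at a log2 fold change of 0.93 (SE 0.040, edgeR adjusted p = 6.02e-17). Csrp2 (ENSMUSG00000020186; chromosome 10, 110919789 to 110939622, plus strand), its close relative in smooth muscle and stellate cells, stood at 46.0 and 41.8 CPM in KO libraries, against 43.1 and 45.8 CPM in WT libraries. The genotypes overlapped, at a log2 fold change of -0.017 (SE 0.082, edgeR adjusted p = 0.895).

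Cald1 (ENSMUSG00000029761; chromosome 6, 34598500 to 34775473, plus strand), caldesmon, had the highest read level of the 9 genes. It stood at 1264 and 1249 CPM in KO libraries, against 1247 and 1248 CPM in WT libraries. The KO libraries lay just above the WT libraries and all 4 were nearly level, at a log2 fold change of 0.011 (SE 0.026, edgeR adjusted p = 0.79). Its 18 annotated transcripts, which include smooth muscle and non-muscle forms, were counted together, so a shift between them was not measured. Smtn (ENSMUSG00000020439; chromosome 11, 3517523 to 3540612, minus strand), smoothelin, stood at 44.7 and 37.8 CPM in KO libraries, against 29.98 and 28.9 CPM in WT libraries. The KO libraries were both above the WT libraries but differed more from each other than for most of the 9 genes, at a log2 fold change of 0.49 (SE 0.095, edgeR adjusted p = 0.000197). Part of Smtn, 4.94% of its 100-base windows, also occurs in the opposite-strand Gm11946.

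**Figure D2:**
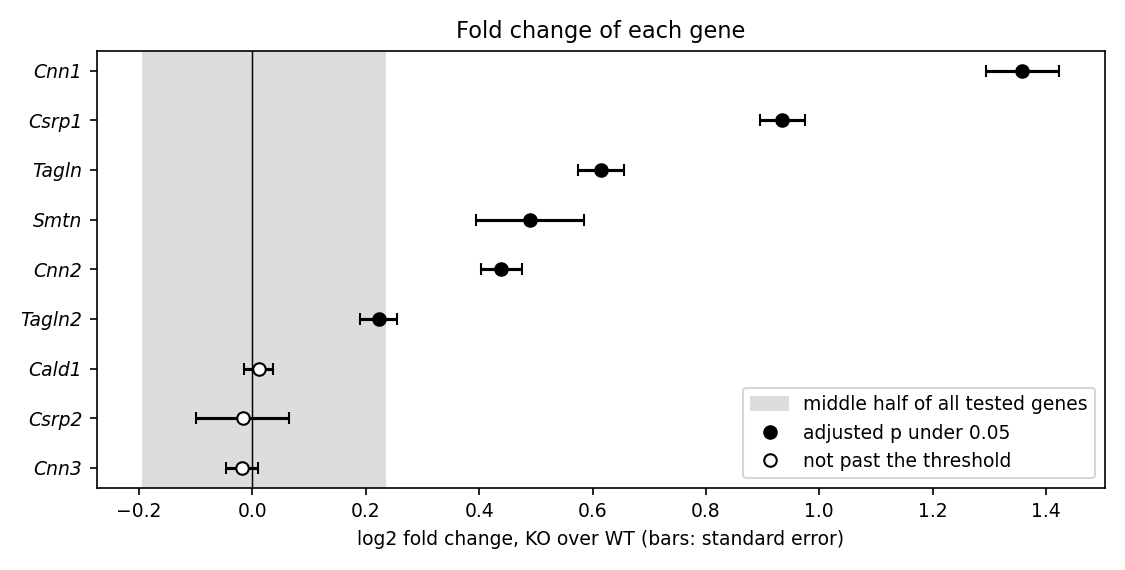
Log2 fold change of each gene, KO over WT, with its standard error (2 libraries per genotype); filled points passed an adjusted p of 0.05 in edgeR, and the grey band spans the quartiles of all 12192 tested genes, -0.19 to 0.23. Cnn1, Csrp1, Tagln, Smtn and Cnn2 lie right of the band, Tagln2 at 0.22 lies inside it, and Cnn3, Csrp2 and Cald1 lie at the zero line.

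At a still larger assumed BCV of 0.2, Cnn1 kept its call (edgeR adjusted p = 0.000575), and Csrp1 kept its call narrowly (edgeR adjusted p = 0.0445). Tagln, Tagln2, Cnn2 and Smtn lost theirs, with adjusted p-values of 0.367, 0.992, 0.703 and 0.637 in edgeR.

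Within a family, the ratio of 2 genes in a library does not depend on how libraries are scaled. All 5 ratios examined, Tagln over Tagln2, Cnn1 over Cnn2, Cnn1 and Cnn2 over Cnn3, and Csrp1 over Csrp2, were higher in both KO libraries than in both WT libraries. Tagln reads were 0.747 and 0.723 times those of Tagln2 in KO libraries, against 0.578 and 0.544 times in WT libraries. Cnn1 reads were 0.276 and 0.259 times those of Cnn2 in KO libraries, against 0.133 and 0.149 times in WT libraries. Against Cnn3, the ratio of Cnn1 was 0.166 and 0.155 in KO libraries and 0.0569 and 0.0663 in WT libraries, and that of Cnn2 was 0.601 and 0.597 in KO libraries and 0.427 and 0.446 in WT libraries. Csrp1 reads were 9.05 and 10.1 times those of Csrp2 in KO libraries, against 5.06 and 4.84 times in WT libraries. The log2 differences of the ratios were 0.39, 0.93, 1.38, 0.46 and 0.95 in the order given. Each restates the fold changes of its 2 genes given above, and the calponin pairs share genes. The 5 pairs are therefore not separate evidence, and the share of other gene pairs without overlap was not computed. With 2 libraries against 2, the exact permutation test, taken in both directions, cannot give a p below 0.333, which each of the 5 pairs reached. The Tagln ratio carries the overlap with Pcsk7.

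**Figure D3:**
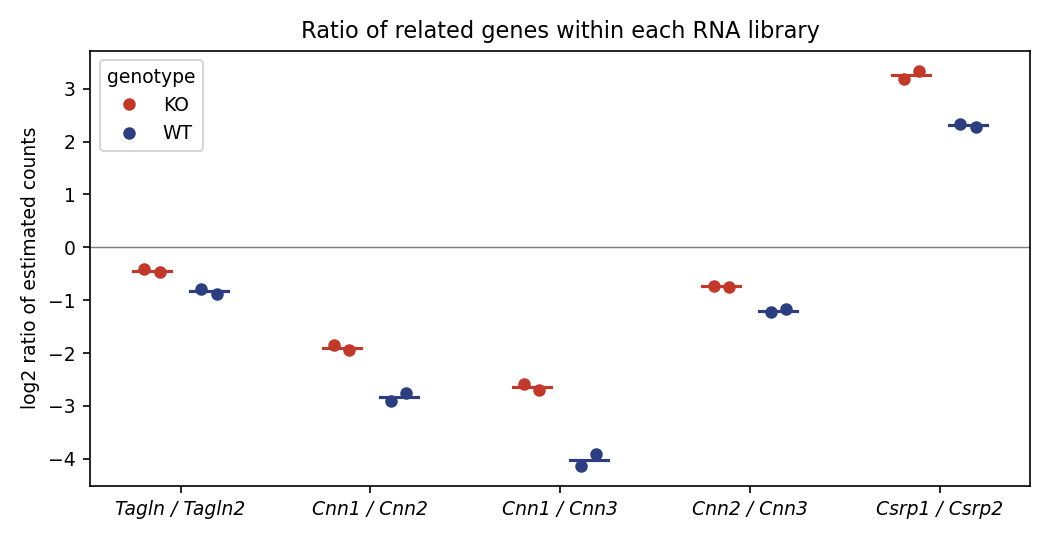
Log2 ratio of the estimated counts of related genes within each RNA library, with 1 point per library (2 KO, 2 WT) and a line at the mean of each genotype; zero means equal counts. In all 5 pairs both KO points lie above both WT points, and the gap is widest for Cnn1 over Cnn3, whose log2 ratio averaged -2.64 in KO and -4.03 in WT libraries.

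Divided by exon length, Tagln2 and Cnn3 led in both genotypes and Smtn was lowest. In CPM per kb of annotated exon (mean ± SD, n = 2), the order in KO libraries was Tagln2 at 313 ± 7.85, Cnn3 at 300.1 ± 0.636, Tagln at 241 ± 11.7, Cnn2 at 222 ± 1.34, Csrp1 at 215 ± 2.83, Cald1 at 104 ± 0.919, Cnn1 at 53.4 ± 2.76, Csrp2 at 20.2 ± 1.37 and Smtn at 9.41 ± 1.11. The libraries of no 2 neighbours in this order overlapped. In WT libraries the order was Cnn3 at 304 ± 2.05, Tagln2 at 268 ± 0.566, Cnn2 at 164 ± 6.08, Tagln at 157 ± 6.43, Csrp1 at 112 ± 1.48, Cald1 at 103.5 ± 0.0707, Cnn1 at 20.8 ± 2.38, Csrp2 at 20.5 ± 0.891 and Smtn at 6.72 ± 0.18. Here Cnn2 overlapped Tagln, and Cnn1 overlapped Csrp2, so these neighbours were not ordered beyond their spread. By this measure Cnn1 was level with Csrp2 in WT libraries and above it in both KO libraries. With the longest transcript as the length, 32 of 36 pairs in KO and 31 of 36 in WT libraries kept their order. Cald1, whose many exons make its summed length large, moved to the 4th place in KO and the 3rd in WT libraries. Cnn1 then lay below Csrp2 in WT libraries, at means of 23.9 and 32.1 CPM per kb. Tagln2 and Cnn3 were nearly level in KO libraries, at 410.7 and 411.7.

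Most relatives of these genes had few or no reads. Tagln3, Smtnl1, Smtnl2, Crip3 and Csrp3, the muscle LIM protein of cardiomyocytes, had too few reads to test, and Crip3 and Csrp3 had none in the 4 libraries. Crip2, a LIM protein related to the CSRP family, was slightly lower, at 1337 ± 35.2 CPM in KO libraries and 1417 ± 13.5 CPM in WT libraries (SD, n = 2 each; log2 fold change -0.08, edgeR adjusted p = 0.0147). Crip1 stood at 77.6 ± 4.09 CPM in KO libraries and 83.8 ± 5.85 CPM in WT libraries (edgeR adjusted p = 0.201).

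The filament genes around them are given for comparison. Of the other actins, all 4 tested were higher in KO libraries, and the smooth muscle γ-actin Actg2 and skeletal α-actin Acta1 had log2 fold changes of 2.04 and 1.37, against 0.39 for Actg1 and 0.26 for Actb. Actins are near-identical in sequence, so reads can be divided wrongly among them. Of 24 other contractile and stress fibre genes, 15 were higher and 1, the non-muscle myosin heavy chain Myh10, was lower (median log2 fold change 0.34). The 4 of smallest p were the regulatory light chain Myl9 at 0.85, leiomodin Lmod1 at 2.04, β-tropomyosin Tpm2 at 0.59 and α-actinin-4 Actn4 at 0.38. The other 8 did not pass the test.

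Among SRF and its cofactors, Srf was higher, at 8.24 and 9.31 CPM in KO libraries, against 3.24 and 4.31 CPM in WT libraries (log2 fold change 1.21, edgeR adjusted p = 7.64e-05). The cofactors Tgfb1i1 and Fhl2 were also higher (0.46 and 0.27), and Klf4, a repressor of smooth muscle genes, was lower (-0.63). The other 6 tested genes did not pass, among them Mrtfa at 0.32 and Mrtfb at 0.02. Myocd, the smooth muscle cofactor of SRF, had 3 and 5 counts in KO libraries, against 5 and 3 in WT libraries. Of 19 tested SRF and MRTF targets outside the contractile list, 13 were higher and 0 lower (median 0.28), a count that again holds Srf, Fhl2 and Tgfb1i1, with Itga5, Fhl1, Wdr1 and Junb of smallest p at 1.40, 1.199, 0.28 and 0.42.

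**Figure D4:**
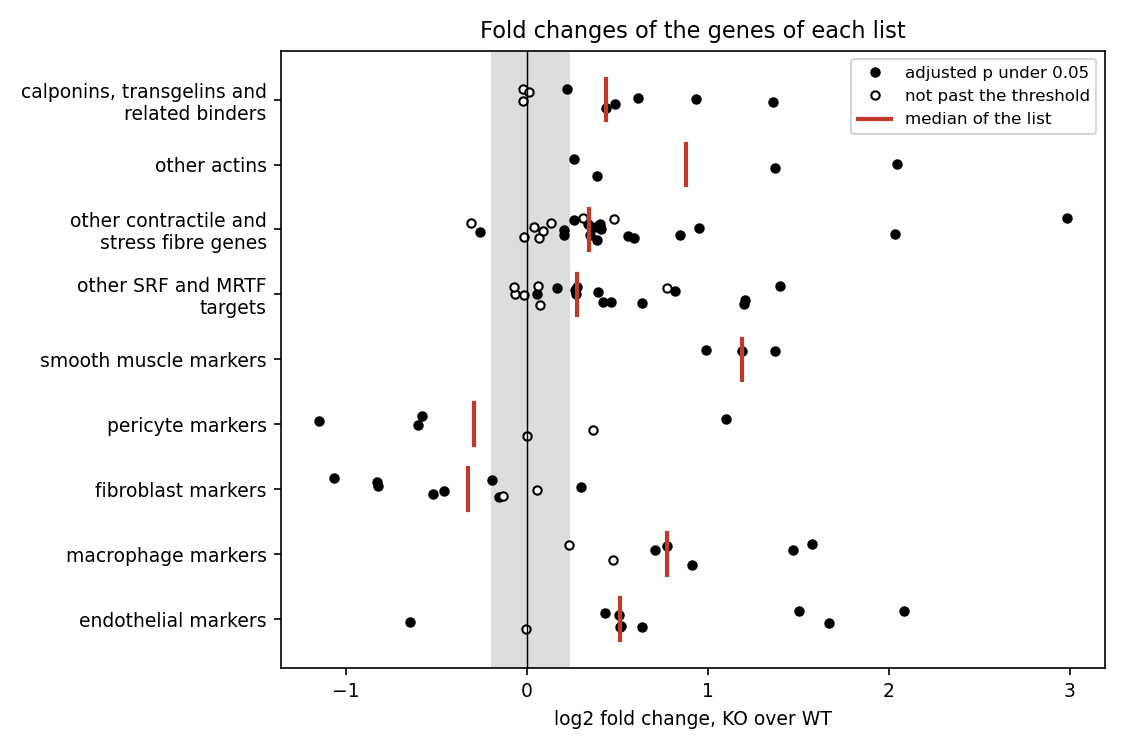
Log2 fold change, KO over WT, of each tested gene in 9 lists, with the median of each list as a red line and the quartiles of all 12192 tested genes as a grey band; filled points passed an adjusted p of 0.05. The 9 filament binders have a median of 0.44, the other contractile genes 0.34, the smooth muscle markers 1.19 and the fibroblast markers -0.32.

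Markers of smooth muscle, macrophage and endothelial cells were mostly higher in KO libraries, as most of the 9 genes were, and those of pericytes, mesothelium, cardiomyocytes and fibroblasts were mostly not. Of 5 smooth muscle markers, 3 were tested and all 3 were higher, Npnt at a log2 fold change of 0.99, Kcnmb1 at 1.37 and Itga8 at 1.19. The summed level of the smooth muscle list was 26.5 and 23.2 CPM in KO libraries, against 11.8 and 10.8 CPM in WT libraries, while Pln was at 0 in all 4 libraries. Of 6 tested pericyte markers, Mcam was higher (1.10), 3 were lower and Pdgfrb did not pass (-0.00020), with sums of 119 and 116 CPM in KO libraries, against 124 and 123 CPM in WT libraries. Of 7 tested macrophage markers 5 were higher, Lyz2 and Cd68 among them (175 and 175 CPM in KO, 101 and 97.4 CPM in WT libraries, with Fcgr1 at 0), and of 10 endothelial markers 8 were higher, Egfl7 and Emcn of highest 4-library mean among them, and 1, Flt1, was lower at -0.64 (149 and 162 CPM in KO, 119 and 112 CPM in WT libraries). Of 6 mesothelial markers, Krt19 was higher (0.49) and 4 were lower, Upk1b among them (-0.20), and of the cardiomyocyte list only Tnnt2 had enough reads to test (-0.74, lower), with Nppa at 0. Of 10 fibroblast markers 7 were lower and 1 higher, and the 2 of highest mean over the 4 libraries, Col1a1 and Col1a2, were among the lower (-0.15 and -0.46). The summed fibroblast level was high in every library (4008 and 3966 CPM in KO, 4966 and 4811 CPM in WT libraries). In bulk RNA, more cells of a type and more RNA per cell cannot be told apart, and the part of these shifts in the levels of the 9 genes was not tested.

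The genes whose pattern over the 4 libraries was nearest to 3 of the members were found among 6868 candidates, by the distance between log2 levels set relative to the WT mean. For Tagln they were Bcar1, Nectin2 and Cxcl1 (distances 0.041, 0.053 and 0.056), with log2 fold changes of 0.60, 0.61 and 0.58. For Cnn1 they were Acta1, Hebp1 and Pgf (0.118, 0.142 and 0.2), with log2 fold changes of 1.37, 1.28 and 1.31. For Csrp1 they were Ctla2a, Tgfb2 and Nudt19 (0.063, 0.092 and 0.098), with log2 fold changes of 0.91, 0.89 and 0.99. With 4 libraries in 2 genotypes, such nearness is mainly a shared fold change.

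Open chromatin was measured in 1 library of each genotype, so the peak results have no replicate check and no test. The KO list held 121748 peaks and the WT list 123935. All 9 genes had a peak within 1 kb of their annotated 5' end in both lists, as did 93.6% of all tested genes in the KO list and 93.6% in the WT list. Fold enrichments below are the authors' values for each peak over its background. They are placed within their own list, and they are not compared between lists. The median over all peaks was itself higher in the KO list, at 6.38, than in the WT list, at 5.75.

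Cnn1 had a modest promoter peak. Its fold enrichment was 8.5 in the KO list (percentile 66.1) and 8.22 in the WT list (percentile 69.9), and the peak covered the gene start, the printed promoter and the printed intronic box in both. Most of the other promoters held stronger peaks. Cnn2 had a fold enrichment of 32.7 in the KO list and 27.5 in the WT list, at percentiles 99.0 and 98.5, but both summits lay about 4 kb upstream of its start, at -4081 and -3799 bases. Tagln had 19.98 in the KO list and 16.0 in the WT list, with summits at -901 and -914 bases, upstream of the gene. Tagln2, Cnn3, Cald1 and Csrp2 had 23.8, 22.95, 24.7 and 25.9 in the KO list. In the WT list they had 19.7, 18.1, 20.1 and 22.6. Within their own lists these lay at percentiles of 92.6 to 96.7.

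Smtn and Csrp1 were open at internal starts and less so at the outermost 5' end. No peak covered the outermost start of Smtn in either list. A cluster of 5 annotated starts, placed at 1320 bases further in, lay within a peak in both lists. The KO peak had a 36.1-fold enrichment (percentile 99.5), but its summit lay 3618 bases downstream of that cluster. The WT peak had a 22.6-fold enrichment (percentile 96.4), with its summit at -179 bases from the cluster. Another WT peak, of 23.4-fold enrichment, covered the position of the KO summit. Near the outermost start of Csrp1 the peaks were weak, at 4.25-fold in the KO list and 4.11-fold in the WT list (percentiles 22.1 and 24.7). The KO peak covered that start, and the WT peak ended at -56 bases from it. Its second start, 9086 bases further in, lay in peaks of 16.2-fold in the KO list and 12.7-fold in the WT list, and its promoter is the one printed above. The count table sums both transcripts of Csrp1, so their separate levels were not measured.

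**Figure D5:**
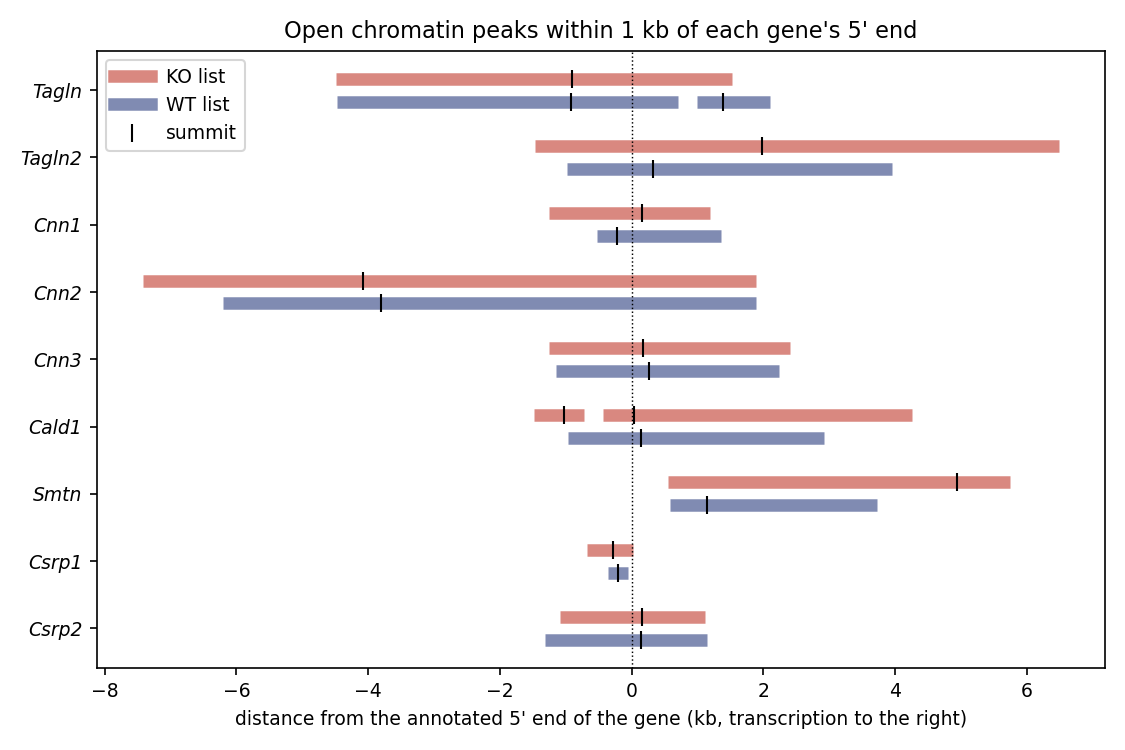
Extent of the peaks within 1 kb of the annotated 5' end of each gene, as distance from that end in kb with transcription to the right; the KO list (1 library) is drawn above the WT list (1 library), and ticks mark summits. Every gene has a peak in both lists, those of Smtn begin 551 and 589 bases inside the gene, and those of Cnn2 reach far upstream.

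Over whole loci, from 10 kb before the 5' end to the 3' end, the 9 genes held 112 peaks in the KO list and 112 in the WT list. Of these, 79.5% of KO peaks (exact 95% binomial interval 70.8 to 86.5%) and 82.1% of WT peaks (73.8 to 88.7%) overlapped a peak of the other list by 1 base or more. Over the loci of all tested genes the shares were 78.7% and 78.1%. The intervals cover counting error only, and the shares fell to 52.7% in both lists when 50% of each peak had to overlap.

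At Cnn1 the lists differed in their number of peaks. The KO list had 9 peaks there, covering 35.3% of the 20.4 kb locus, and the WT list had 3, covering 18.2%. The 3 WT peaks all overlapped KO peaks, and 6 KO peaks overlapped none in WT. Those 6 were weak, with fold enrichments of 3.4 to 4.25 and percentiles of 5.7 to 22.1 in the KO list, and 5 of them lay inside the gene, 3232 to 9402 bases from its start. Taken as a criterion after Cnn1 was seen, at least 6 such KO peaks with 0 WT peaks alone occurred at 0.0903% of 12185 loci, and the opposite at 0.0821%. The criterion is the value of Cnn1 itself, so these shares are a description and not a test. They take no account of locus length or of the number of peaks at a locus. At Csrp1, 3 of 17 KO peaks and 0 of 13 WT peaks stood alone, and at Cald1 13 of 45 KO peaks and 13 of 46 WT peaks did. At Tagln and Tagln2 every peak of either list overlapped one of the other.

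CArG boxes were found in the open chromatin of 6 of the 7 genes searched. The share of all tested genes with a box in a peak of their locus was not computed, so this count has no background. Tagln and Csrp2 had no promoter in the RefSeq table and were left out, so boxes at their loci were not counted. Both strands were read, over the whole of each peak at the locus, for Tagln2, Cnn1, Cnn2, Cnn3, Cald1, Smtn and Csrp1, and the search gave 20 boxes in all, 14 of them in peaks of both lists and 10 of them at Cald1. Per length of peak this came to 136 boxes per Mb in KO peaks and 129 per Mb in WT peaks at these loci, against 50.8 and 51.0 per Mb over all peaks of the KO and WT lists. In the 300 bases around the summit, 4 of 97 KO peaks (4.12%) and 2 of 95 WT peaks (2.11%) at these loci had a box. The shares over all peaks were 1.5% in the KO list and 1.41% in the WT list. Of the KO windows with a box, that at Cald1 held it outside the peak itself, so this box is not among the 20. The other KO windows with a box were all at Csrp1. These values are a description of few boxes and were not tested, and a match says nothing of whether SRF was bound.

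The box CCTTATAAGG occurred at both Cnn1 and Cnn2. At Cnn1 it began 910 bases after the gene start, in an intron and just ahead of a second annotated start at 976 bases, within the promoter peak of both lists. At Cnn2 it began at -40 bases from the gene start, which is -56 to -47 from the RefSeq start, and it was the only full CArG box among the 9 RefSeq promoters of these genes. Of 32851 RefSeq promoters of the same length, 1.63% held one. Csrp1 had 5 boxes, 4 of them in peaks of both lists, all away from its 2 starts. The printed one, CCTTAAATGG, began 4348 bases into the gene, and its centre lay 5 bases from the summit of a KO peak of 7.23-fold enrichment and 189 bases from that of a WT peak of 4.52-fold enrichment.

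Cald1, which did not pass the test, had the most boxes, 10 over its 187 kb locus, with 7 in peaks of both lists. The printed one, CCAAAAAAGG, began at -251 bases from the gene start, in a peak of 24.7-fold enrichment in the KO list and 20.1-fold in the WT list. Smtn held CCTTATATGG 4772 bases into the gene, in annotated exon sequence and in peaks of both lists, with its centre 162 bases from the summit in the KO list and 95 bases in the WT list. Cnn3 held 1 box in a KO peak alone, and Tagln2 had none. Cald1 and Cnn3 were the searched genes that did not pass the test. Their loci differ in length from those of the other genes, and Tagln was not searched. A relation between boxes and fold changes was not tested.

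Other short motifs in the RefSeq promoters were few. The TEAD motif GGAATG, on either strand, was in 3 of the 9 promoters, at Tagln2 (2 matches), the first promoter of Cald1, and Smtn, beside 14.7% of all promoters. The AP-1 motif TGANTCA and the TATA box TATAAA were each in 1, the second promoter of Cald1, beside 7.81% and 13.6% of all promoters. A CArG box with 1 deviating base was in 1, the first promoter of Cald1, beside 19.9%. None of these matches overlapped another. In base composition the promoters of Cnn3 and Cnn2 were rich in G and C, at 78.3% and 70.7% (percentiles 98.2 and 91.4 of all promoters), whereas that of Cnn1 held 59.3% with a CpG ratio, observed over expected, of 0.24, against a median of 0.38.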

How the data were processed

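RNA-seq (2 Acta2 KO, 2 WT) and ATAC-seq (1 Acta2 KO, 1 WT) libraries of mouse cardiac fibroblasts were used, grouped by the genotype in their labels and sequenced as 150 bp paired reads. Gene values came as a single deposited table of estimated counts. RNA reads passed through Trim Galore 0.6 and STAR 2.5.3a (genome mm10), per the labels' protocols; the counting program is not given in the sources used here. Per the labels' protocols, ATAC-seq reads were aligned with Bowtie2 2.3 and peaks were called per library with MACS2 without a local background. In the deposited peak lists, each peak has a score, a fold enrichment (ratio) and a −log10 q-value, all from the peak caller as the authors ran it, and the depth of those libraries is unknown.

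Estimated counts, 10.8 to 12.2% of them not whole, were rounded and tested with edgeR 4.0.16 (quasi-likelihood, minimum count 10, TMM scaling, Benjamini-Hochberg at 0.05 over 12192 genes), in R 4.3.3. Whole counts had been assumed when the test was planned. Rounding aside, the planned test was kept, and CPM values were computed from the deposited estimates. DESeq2 1.42.0, limma 3.58.1 and other settings were alternatives, and the scripts were tested on simulated data. Libraries of a genotype differed by more than sampling noise (chi-square per degree of freedom 1.99 in KO and 1.77 in WT). Each was counted as its own sample, but such a difference can be technical and does not show that the libraries are independent. Genes were placed by GENCODE M21, whose coordinates equal those of the table for all 9 genes; promoters came from RefSeq. Named genes are the 9 members, Acta2, related genes, up to 4 called genes of smallest p per list, the 2 highest of each cell type list and the 3 nearest patterns of Tagln, Cnn1 and Csrp1; Itga8, Flt1, Myocd, Mrtfa, Mrtfb, Myh10, Pcsk7 and genes listed at 0 were named after their values were seen. The members and lists were chosen with earlier results of these data known. Protein sequences were not used here.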

Additional observations from a re-analysis of the deposited data

How the results depend on the processing

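The count of 6 genes higher and 0 lower among the 9 was the same with DESeq2, limma voom, the edgeR exact test, other scaling and other count filters, and without any 1 library. It was 5 with an assumed BCV of 0.1, where Tagln2 (0.22) lost its call, and 2 with 0.2, where Tagln (0.61), Tagln2 (0.22), Cnn2 (0.44) and Smtn (0.49) lost theirs. Without any 1 library, log2 fold changes ranged from 1.25 to 1.48 for Cnn1, 0.92 to 0.95 for Csrp1, 0.56 to 0.66 for Tagln, 0.36 to 0.61 for Smtn, 0.40 to 0.48 for Cnn2 and 0.19 to 0.25 for Tagln2. Signs turned in genes that did not pass: with library size alone as scaling, Cnn3 was at 0.003 and Csrp2 at 0.004, and without 1 library Cald1 ranged from -0.003 to 0.021 and Csrp2 from -0.094 to 0.051. Genes called over the whole table numbered 1694 in DESeq2, 1780 and 398 where the BCV was set at 0.1 and 0.2, and 3392 to 3674 without 1 library, where the lone library is assumed to vary like the other genotype. With a replicate block the count was 4408 and no call among the 9 genes changed. The same-numbered libraries deviated together with a correlation of 0.000403 over 12192 genes. Over the 6869 genes of mean log2 CPM 4 or more it was 0.0676. These values cannot show whether same-numbered libraries share a mouse, dish or day. Peaks with a fold enrichment of 5 or more overlapped the other list in 93.5% (KO) and 98.4% (WT), and 52.7% in both lists met a 50% reciprocal overlap. A fold enrichment of 5 or more left 8 of 9 genes with a promoter peak in each list, as did a distance of 500 bases. Apart from the construction of each alternative, the cause was not tested. The comparison of protein sequences that had been planned was not run. With 2 RNA libraries and 1 ATAC-seq library per genotype, the data limit what can be said of animals.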
